A study of Mus musculus with 6 samples.

Results

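The enzymes that convert cholesterol to bile acids were followed in the livers of mice given a fruit extract or water. The set was chosen by gene symbol and holds 10 of the 22899 genes in the expression table. It covers 4 early steps (Cyp7a1, Cyp8b1, Cyp27a1 and Cyp7b1) and 6 later steps (Cyp2c70, Hsd3b7, Akr1d1, Akr1c6, Slc27a5 and Baat). Early and later are names for these groups, the first chosen as rate-setting steps, and do not give the strict order of the reactions. The mice were of the ICR stock, an outbred laboratory mouse, and specific pathogen-free. The extract group received the ethyl acetate fraction of Chebulae Fructus hydrosoluble extract, from the dried fruit of Terminalia chebula, by gastric irrigation over 1 week, at a daily dose of 1 g/kg. The control group received water at 10 ml/kg in the same way over 1 week. There were 3 liver libraries per group, numbered 1 to 3 within the water and the extract group. Age, sex, genotype, cage and time of day are not labelled. Since the labels do not state that libraries are different animals, p-values describe variation among these 6 libraries, which may be technical.

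Bile acids are made in hepatocytes by 2 routes. In the classic route Cyp7a1 adds a hydroxyl group to the sterol ring, and this is the rate-limiting step of the pathway. In the alternative route Cyp27a1 oxidises the side chain first and Cyp7b1 then hydroxylates the ring. Cyp8b1 adds the hydroxyl group that makes cholic acid, and so sets the ratio of cholic acid to the other primary bile acids. In mice Cyp2c70 makes the muricholic acids. The ring is further changed by Hsd3b7, Akr1d1 and a hydroxysteroid dehydrogenase of the Akr1c family. Slc27a5 and Baat then join the bile acid to coenzyme A and to taurine or glycine. Bile acids returning from the gut activate the nuclear receptor FXR, encoded by Nr1h4, and FXR induces the repressor SHP, encoded by Nr0b2, which lowers Cyp7a1 and Cyp8b1 transcription.

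The promoters of Cyp8b1 and Cyp2c70 are shown because these enzymes lead to different primary bile acids, their levels lay in opposite directions between the groups, and both hold the same short element. RefSeq promoter sequence on GRCm38.p6 was matched for 6 of the 10 genes; Cyp7a1, Cyp7b1, Slc27a5 and Baat had no entry. The 250 bases before the start site are printed 5′ to 3′ on the gene's own strand, which is the minus strand for both. Capitals mark the letters CAAAGTCCA, a binding motif of the hepatocyte nuclear receptor HNF4A.
Cyp8b1, chr9:121916306-121916555: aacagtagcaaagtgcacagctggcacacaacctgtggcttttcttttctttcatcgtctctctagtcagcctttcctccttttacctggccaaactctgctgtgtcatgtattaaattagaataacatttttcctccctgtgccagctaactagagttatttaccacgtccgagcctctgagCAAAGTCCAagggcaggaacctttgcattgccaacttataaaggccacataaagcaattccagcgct
Cyp2c70, chr19:40187287-40187536: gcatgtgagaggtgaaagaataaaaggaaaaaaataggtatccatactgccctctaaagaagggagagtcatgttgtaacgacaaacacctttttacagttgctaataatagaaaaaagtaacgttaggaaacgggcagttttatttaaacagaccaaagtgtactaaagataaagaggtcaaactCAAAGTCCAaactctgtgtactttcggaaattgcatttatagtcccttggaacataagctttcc
The motif began 67 bases before the start of Cyp8b1 and 64 bases before that of Cyp2c70. On either strand it was found in 126 of 32851 windows of the same length over all RefSeq promoters, or 0.384%, and in none of the other 4 matched windows (Cyp27a1, Hsd3b7, Akr1d1 and Akr1c6). An NR5A2 motif, CAAGGNCA, overlapped it by 2 bases in Cyp8b1 and also occurred in the Akr1c6 window, against 5.53% of all windows. The TATA box letters TATAAA were found for Cyp8b1, Cyp2c70 and Akr1c6 (12.4% of all windows). They began 31 bases before the start for Cyp8b1, 29 for Cyp2c70, there on the opposite strand, and 164 for Akr1c6. The D-box letters TTATGNAA were found for Cyp27a1 and Akr1d1 (3.07%) and the STAT5 letters TTCNNNGAA for Hsd3b7 (7.02%). These matches describe letters in the window. The Cyp27a1 window (chr1:74713285-74713534) lay inside the gene's annotated span, which begins at 74713148. The Akr1d1 and Akr1c6 windows ended at 37530172 and 4434342, past the annotated gene starts of 37529978 and 4434311. For these genes the matches, and the missing HNF4A motif, therefore do not describe only bases upstream of the gene. The motifs were chosen with the promoters and the expression values in view.

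Expression was read as FPKM (fragment number divided by transcript length and by library size), a unit inferred from the values because the table names none. The values summed to between 517984 and 583245 per library and 15440 to 15601 genes were above 0. Total reads are not given, so the depth and counting error behind a value are unknown. The test was limma, a linear model fitted at once over the 10282 genes that reached 1 FPKM in 3 or more libraries. Every log2 fold change refers to FPKM + 1, and adjusted p-values are Benjamini-Hochberg over the 10282 genes. The libraries were not evenly grouped: on the first principal component extract 3 scored 2.06, between the other extract libraries (14.2 and 26.8) and water (-23.1 to -3.81), and the second set water 1 (29.6) off from the rest (-11.9 to -2.74). Values without these libraries are therefore given where they matter. In bulk tissue fewer cells of a type and less RNA per cell cannot be told apart. Hepatocyte markers were abundant in every library, among them Hnf4a at 157 to 188 FPKM. In a list of 8 gut and pancreas genes Cpa1 and Prss2 were listed at 0 throughout. Pnlip, Vil1, Lct and Muc2 did not exceed 0.22 FPKM. The other genes of that list were present in every library, Cela1 at 5.79 to 9.41 FPKM and Fabp2 at 34.8 to 75.4.

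All 10 enzymes were expressed in every library and all passed the filter on low values. FPKM is per length, so levels can be set side by side. In water livers Akr1c6 had the highest mean (369 FPKM), followed by Slc27a5 (291), Cyp8b1 (235), Cyp27a1 (211), Cyp2c70 (151), Baat (97.0), Akr1d1 (91.5), Cyp7a1 (77.9), Hsd3b7 (73.9) and Cyp7b1 (5.60). Neighbours in this order had separate ranges over the water libraries only between Akr1c6 and Slc27a5, between Cyp2c70 and Baat, and between Hsd3b7 and Cyp7b1; the other neighbours overlapped. In extract livers the order was Akr1c6, Slc27a5, Cyp2c70, Cyp27a1, Cyp8b1, Hsd3b7, Baat, Akr1d1, Cyp7a1 and Cyp7b1. Cyp8b1 thus went from the third to the fifth place and Cyp2c70 from the fifth to the third, while Hsd3b7 went from the ninth to the sixth. The ranges of neighbours from Slc27a5 down to Baat overlapped over the extract libraries.

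**Figure D1:**
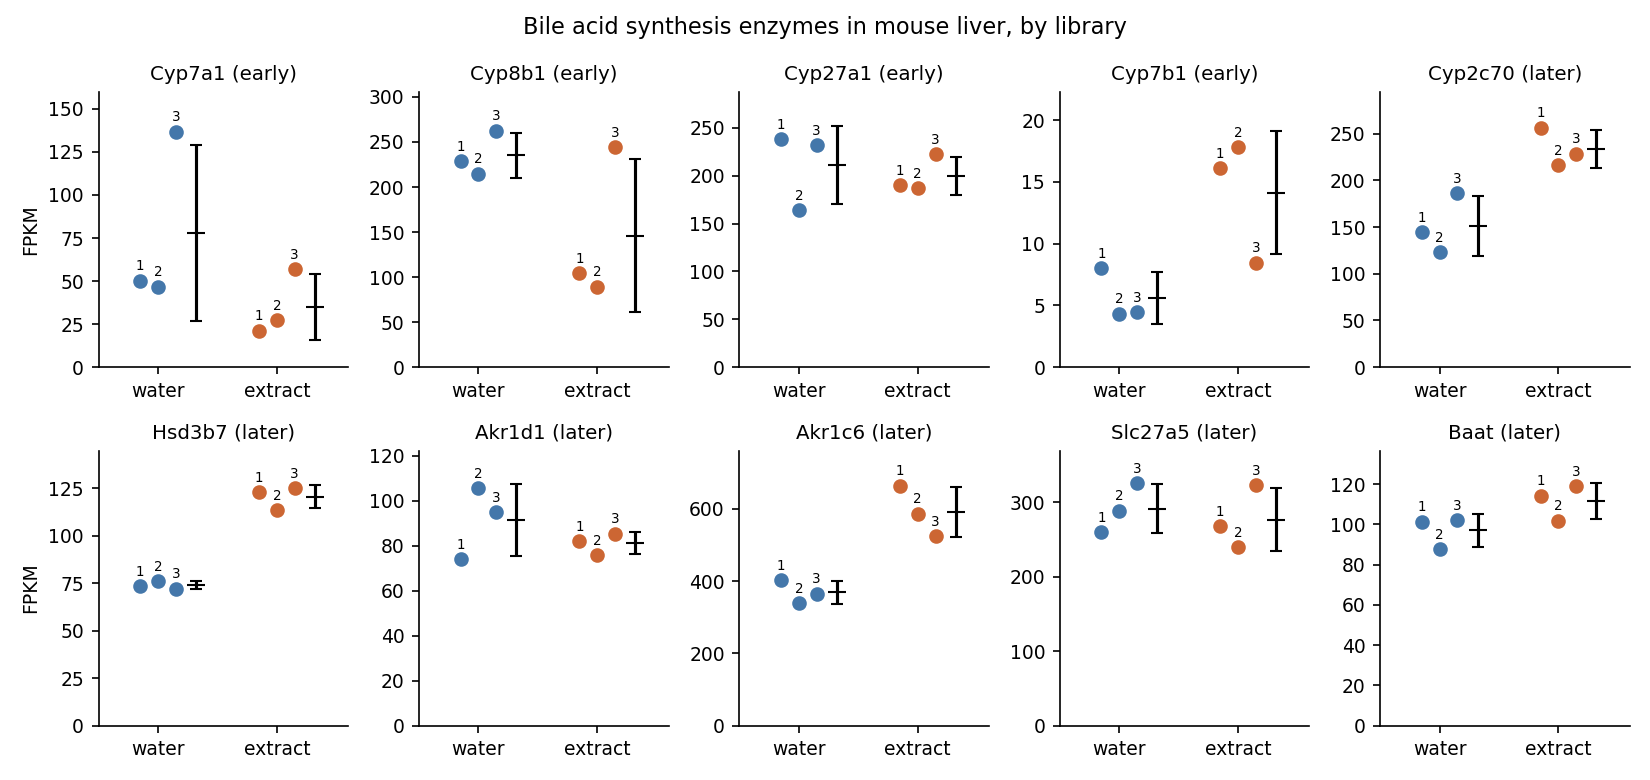
FPKM of each enzyme (vertical axis, from 0) in the water and extract libraries; points are libraries with their replicate number, and bars are the mean and SD over 3 libraries. Extract 3 sits with the water libraries for Cyp8b1 (244 FPKM) and just above them for Cyp7b1 (8.45), but with the other extract libraries for Hsd3b7 (125) and Cyp2c70 (228).

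The comparison of extract with water asked whether these transcripts differed after a week of extract. No enzyme passed limma's adjusted threshold of 0.05, where 5 of 10282 genes (0.0486%) did. At an unadjusted p below 0.05 there were 5 enzymes. Cyp7b1, Cyp2c70, Hsd3b7 and Akr1c6 were the higher ones, against 6.5% of all genes tested, and Cyp8b1 was the lower one, against 3.82%. For the same 4 the lowest extract library was above the highest water library (10% of all genes), and no enzyme had the reverse (5.88%). With limma's library weights 133 genes passed over all tested. Among them were 3 enzymes (Hsd3b7, Akr1c6 and Cyp7b1, limma adjusted p between 0.0281 and 0.0384). Without extract 3 only Cyp8b1 passed among the enzymes. Over all genes tested 0 to 48 passed when one library was left out. Depth being unknown, and with 3 libraries a group, the enzymes that did not pass are given with the interval of the difference.

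Cyp7a1, the rate-limiting enzyme of the classic route (gene ID 13122, chromosome 4 from 6265612 to 6275632 on GRCm38), had 50.3, 46.8 and 137 FPKM in water 1 to 3 and 21.1, 27.4 and 57.0 in extract 1 to 3. Water 3 was far above every other library, extract 1 and extract 2 were the lowest, and extract 3 overlapped the water range. The mean was 77.9 ± 50.9 FPKM in water and 35.2 ± 19.1 in extract livers (mean ± SD, 3 libraries each, here and below), or 45.2% of the water mean. The log2 fold change was -1.07 (standard error, SE, 0.47) with a 95% interval of -2.17 to 0.03 (limma adjusted p = 0.498). It was -0.58 without water 3 and -1.47 without extract 3, so the size moved with single libraries while the sign stayed negative in all 20 alternatives. Cyp7a1 had the widest spread among the water libraries of the 10 enzymes, with a ratio of highest to lowest of 2.92.

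Cyp8b1, the enzyme of cholic acid formation (gene ID 13124, chromosome 9 from 121914356 to 121916305), had 229, 215 and 263 FPKM in water and 105, 89.5 and 244 in extract 1 to 3. Extract 1 and extract 2 lay below every water library, and extract 3 lay within the water range. Means were 235 ± 24.7 and 146 ± 85.3 FPKM, a log2 fold change of -0.83 (SE 0.34) with a 95% interval of -1.62 to -0.03 (limma adjusted p = 0.474). Without extract 3 it was -1.27 (limma adjusted p = 0.0365), and without both water 1 and extract 3 it was -1.29 (limma adjusted p = 0.0378). Extract 3 was the extract library nearest to water, so leaving it out had to enlarge the difference. Without extract 2 the log2 fold change was -0.55. The spread among extract libraries was 58.4% of their mean, against 10.5% in water.

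Cyp7b1, the ring hydroxylase of the alternative route and an enzyme that also clears oxysterols (gene ID 13123, chromosome 3 from 18071944 to 18243890), had 8.02, 4.32 and 4.45 FPKM in water and 16.1, 17.8 and 8.45 in extract 1 to 3. All extract libraries were above all water libraries, but extract 3 exceeded water 1 by little. Means were 5.60 ± 2.10 and 14.1 ± 4.99 FPKM, 2.52 times as high in extract livers. The log2 fold change was 1.18 (SE 0.30) with a 95% interval of 0.48 to 1.88 (limma adjusted p = 0.234). It was 0.99 without extract 2 (limma adjusted p = 0.535) and 1.05 without water 2 (limma adjusted p = 0.565). Without both water 1, the highest water library, and extract 3, the lowest extract library, it was 1.74 (limma adjusted p = 0.00803). Those libraries lay nearest to the other group, so leaving them out had to enlarge the difference. Among P450 genes of the mouse liver Cyp7b1 is known to be higher in males, and in a list of 16 genes with higher expression in male liver the 14 tested ones had positive fold changes (Mup7 passed the filter on low values through the extract libraries alone), with a summed level of 982 to 2111 FPKM in water and 2283 to 7838 in extract libraries. Those sums were mostly Mup1 and Cyp2d9, whose groups overlapped. Higher without overlap were 11 of the 14 tested genes, against 10% of all genes tested. Of 15 genes with higher expression in female liver 13 of the 14 tested had negative fold changes, with sums of 718 to 1342 and 101 to 589 FPKM. The part of sex-biased expression in the Cyp7b1 value was not tested.

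Cyp27a1, the mitochondrial side-chain hydroxylase, had 238, 164 and 232 FPKM in water and 190, 187 and 223 in extract 1 to 3. The extract values all lay within the water range. The log2 fold change was -0.06 with a 95% interval of -0.46 to 0.34 (limma adjusted p = 0.953).

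Of the enzymes that act after the ring has been hydroxylated, Hsd3b7 varied least within the groups (2.81% of the mean in water and 5.07% in extract livers). It oxidises the ring of sterols from both routes (gene ID 101502, chromosome 7 from 127800609 to 127803802). It had 73.5, 76.2 and 72.1 FPKM in water and 123, 114 and 125 in extract 1 to 3. The groups were far apart, and extract 3 was the highest of all libraries. Means were 73.9 ± 2.08 and 121 ± 6.11 FPKM, 1.63 times as high in extract livers, with a log2 fold change of 0.70, an SE of 0.11 and a 95% interval of 0.45 to 0.95 (limma adjusted p = 0.0882). By p it stood at rank 23 among the 10282 genes. Its log2 fold change stayed between 0.65 and 0.74 in the 20 alternatives, the narrowest range among the 5 enzymes with an unadjusted p below 0.05.

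Akr1c6 stands here for the reduction of the ring's keto group, a step that AKR1C4 carries out in human (gene ID 83702, chromosome 13 from 4434311 to 4457530). It had 402, 339 and 366 FPKM in water and 664, 587 and 525 in extract 1 to 3. Every extract library was above every water library, extract 3 by the least. Means were 369 ± 31.7 and 592 ± 69.5 FPKM, with a log2 fold change of 0.68, an SE of 0.14 and a 95% interval of 0.35 to 1.01 (limma adjusted p = 0.173). The gene lies in a cluster of similar Akr1c genes, so its level is uncertain where reads were divided among copies. Akr1d1, which reduces the double bond of the ring, had 74.0, 106 and 94.8 FPKM in water and 81.9, 75.9 and 85.4 in extract 1 to 3. Its groups overlapped, and the log2 fold change was -0.16 with a 95% interval of -0.51 to 0.19 (limma adjusted p = 0.816).

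Cyp2c70, the enzyme of muricholic acid formation in mice (gene ID 226105, chromosome 19 from 40153361 to 40187286), had 145, 123 and 186 FPKM in water and 256, 216 and 228 in extract 1 to 3. All extract libraries, extract 3 included, were above all water libraries. Means were 151 ± 31.8 and 234 ± 20.4 FPKM, with a log2 fold change of 0.64, an SE of 0.17 and a 95% interval of 0.25 to 1.04 (limma adjusted p = 0.239). It belongs to the Cyp2c gene cluster, with the same uncertainty over similar copies. Its ratio to Cyp8b1, a comparison chosen after the values were seen, was 0.633, 0.574 and 0.708 in water and 2.45, 2.42 and 0.935 in extract 1 to 3. The ratio did not overlap between the groups, though extract 3 lay nearer to water than to the other extract libraries. This is a ratio of transcript levels, and bile acids themselves were not measured in these files.

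The conjugating enzymes differed little between the groups. Slc27a5, the ligase that activates bile acids with coenzyme A, had 260, 288 and 325 FPKM in water and 268, 240 and 322 in extract 1 to 3. The groups overlapped throughout, with a log2 fold change of -0.08 and a 95% interval of -0.44 to 0.28 (limma adjusted p = 0.934). Baat, the transferase that adds taurine or glycine, had 101, 87.6 and 102 FPKM in water and 114, 102 and 119 in extract 1 to 3. Extract 2 lay just inside the water range, and the log2 fold change was 0.20 with a 95% interval of -0.09 to 0.49 (limma adjusted p = 0.644).

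**Figure D2:**
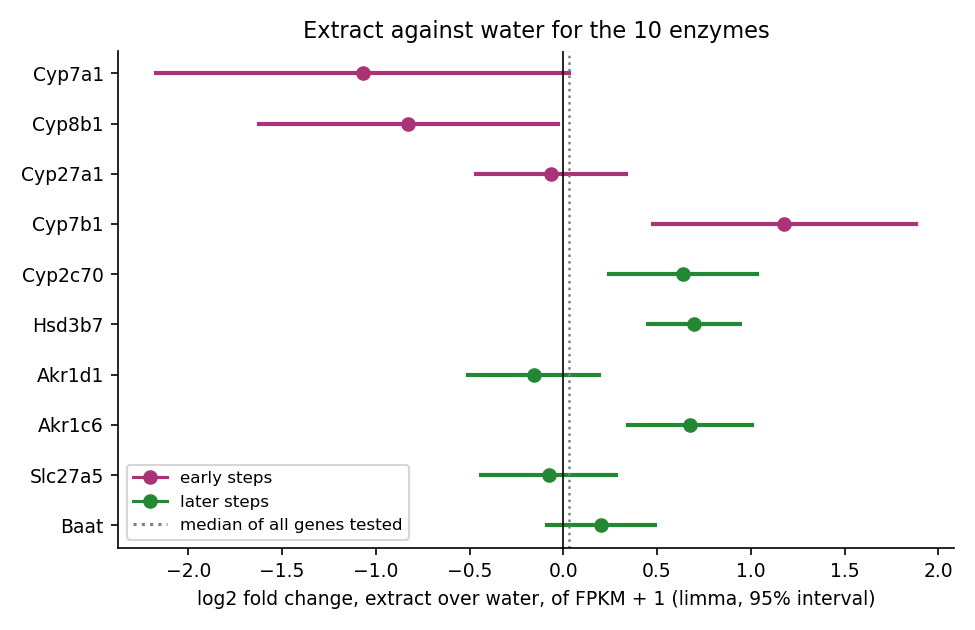
Log2 fold change of each enzyme, extract over water, on the FPKM + 1 scale (horizontal axis), with limma's 95% interval; purple marks early and green later steps, and the dotted line is the median of all genes tested (0.03). Cyp7a1 (-1.07) and Cyp8b1 (-0.83) have the widest intervals next to Cyp7b1 (1.18), and Hsd3b7 (0.70) has a narrow one.

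The groups named early and later steps were then set side by side, which is not a comparison along the order of the reactions. Of the 4 early enzymes 3 had negative fold changes, with a median log2 of -0.44, and of the 6 later ones 4 had positive fold changes, with a median of 0.42. Over all genes tested the median was 0.03 and 57.5% of fold changes were positive. The early steps were not uniform, since Cyp7b1 (1.18) lay opposite to Cyp7a1 (-1.07). The summed level of the early enzymes was 525, 430 and 635 FPKM in water and 332, 322 and 532 in extract 1 to 3, so extract 3 lay inside the water range. The summed level of the later enzymes was 1055, 1020 and 1146 FPKM in water and 1506, 1334 and 1405 in extract 1 to 3, with no overlap. The mean log2(FPKM + 1) of the early enzymes minus that of the later ones was -1.02, -1.39 and -0.95 in water and -1.89, -1.66 and -1.38 in extract 1 to 3. Extract 3 lay just inside the water range on this scale. No p is given for these summed values, because the enzymes were grouped with earlier results of these data known.

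**Figure D3:**
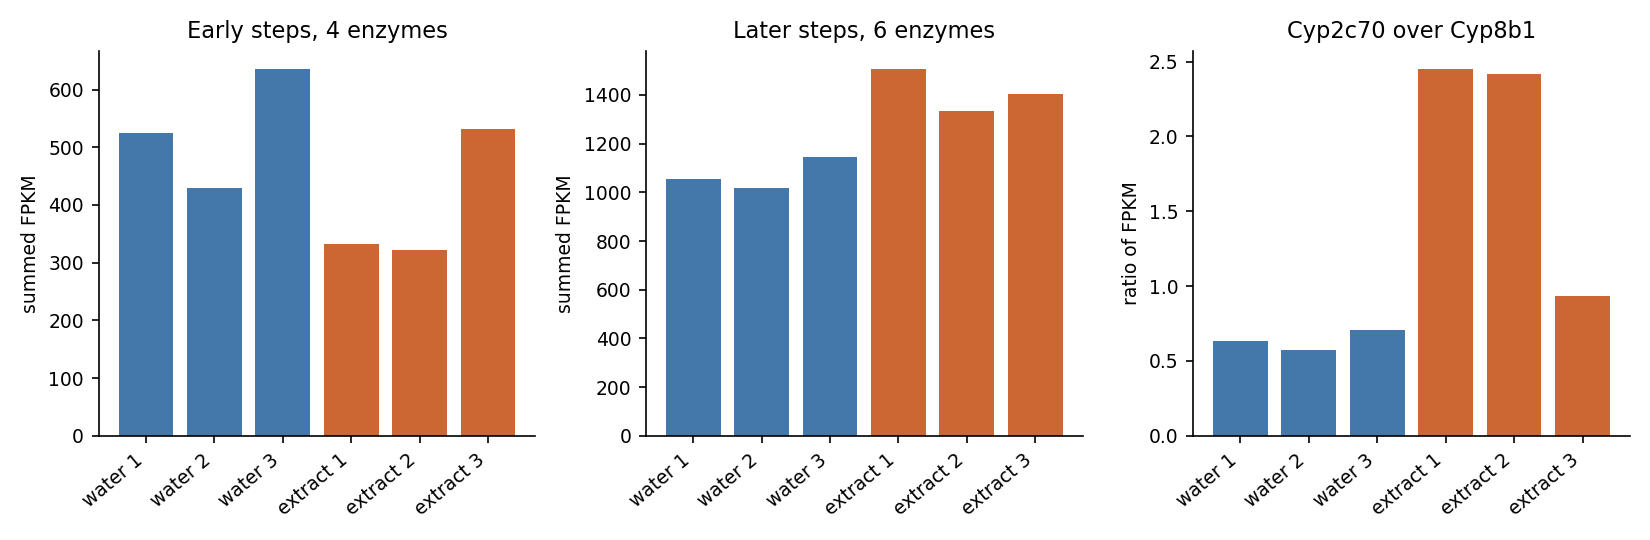
Summed FPKM of the 4 early enzymes (left) and the 6 later enzymes (middle), and the ratio of Cyp2c70 to Cyp8b1 FPKM (right), one bar per library, blue for water and orange for extract, all axes from 0. The later sums separate the groups (1020 to 1146 against 1334 to 1506), while extract 3 has an early sum of 532, inside the water range.

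Further enzymes of bile acid formation and side-chain shortening were taken as a list of 12, of which 11 were tested. 4 had positive and 7 negative fold changes, with a median log2 of -0.14, and 1 higher and 2 lower genes had an unadjusted p below 0.05 (6.5% and 3.82% of all genes tested). None passed limma's adjusted threshold (smallest adjusted p 0.239). Cyp39a1, which hydroxylates the ring of an oxysterol, had 19.2, 19.3 and 17.3 FPKM in water and 9.20, 15.2 and 10.4 in extract 1 to 3, lower in all extract libraries (log2 fold change -0.66, limma adjusted p = 0.239). Cyp46a1, the cholesterol side-chain hydroxylase best known from brain, had 49.7, 53.5 and 45.7 FPKM in water and 2.63, 31.4 and 13.2 in extract 1 to 3. The water libraries were close together and the extract libraries were lower and widely spread (log2 fold change -2.09, SE 0.67, limma adjusted p = 0.326; -1.24 without extract 1). Akr1c14, a hydroxysteroid dehydrogenase next to Akr1c6 in the same family, had means of 89.2 ± 2.58 and 116 ± 8.45 FPKM and was higher in all extract libraries (log2 fold change 0.37, limma adjusted p = 0.294). Acot8, a peroxisomal thioesterase, was lower in all of them at 12.5 ± 1.5 and 10.3 ± 1.25 FPKM (limma adjusted p = 0.564). Cyp2a12, which rehydroxylates secondary bile acids in mouse liver, varied widely at 232, 311 and 533 FPKM in water and 696, 109 and 113 in extract 1 to 3.

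The regulators of the pathway were less spread. Of 17 listed genes 15 were tested, 8 with positive and 7 with negative fold changes and a median log2 of 0.03. Nr0b2, which encodes SHP, was the only one with an unadjusted p below 0.05. It had 32.6, 12.5 and 17.2 FPKM in water and 65.0, 23.2 and 53.5 in extract 1 to 3. Extract 1 and extract 3 were above every water library, and extract 2 fell below water 1 (log2 fold change 1.13, SE 0.43, limma adjusted p = 0.422). Cyp8b1 was low in extract 1 and extract 2 only. Whether Nr0b2 had a part in the Cyp7a1 and Cyp8b1 values was not tested. The receptor gene Nr1h4 had 85.7 ± 15.9 and 81.4 ± 19.9 FPKM. Hnf4a had 176 ± 16.8 and 182 ± 8.59 FPKM, and Nr5a2, which encodes the activator LRH-1, had 13.4 ± 0.95 and 12.4 ± 0.82, with overlapping groups for both. Fgfr4 and Klb, the receptor and co-receptor for the gut hormone FGF15, had log2 fold changes of 0.19 and 0.27 (limma adjusted p of 0.774 and 0.776). These ranged from 0.08 to 0.36 and from 0.09 to 0.46 with one library left out. Of the other nuclear receptor genes and coactivators with the smallest p, Nr1i2, Ppargc1a and Nr1i3 had log2 fold changes of -0.24, -0.34 and -0.41 and overlapping groups. With one library left out Nr1i3 ranged from -0.67 to -0.14 and Ppargc1a from -0.53 to -0.19.

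Genes of bile acid and canalicular transport were a list of 16, of which 14 were tested. 10 had positive and 4 negative fold changes, with a median log2 of 0.12, and 5 higher and 1 lower gene had an unadjusted p below 0.05 (6.5% and 3.82% of all genes tested). Slc51b, counted among the higher ones, had to be higher to be tested. None passed limma's adjusted threshold (smallest adjusted p 0.0882). Abcb11, the bile salt export pump, had 55.6, 54.4 and 53.0 FPKM in water and 75.9, 80.9 and 69.9 in extract 1 to 3, with no overlap (log2 fold change 0.47, SE 0.11, limma adjusted p = 0.202). Atp8b1, a canalicular lipid flippase, had 2.27 ± 0.30 and 4.71 ± 0.47 FPKM (log2 fold change 0.80, limma adjusted p = 0.0882). Slc51b, a subunit of the basolateral exporter, had 0.38 ± 0.11 and 1.48 ± 0.31 FPKM; it passed the filter on low values through the extract libraries alone, and its partner Slc51a was listed at 0. Abcg2 had 15.3 ± 1.91 and 20.2 ± 1.4 FPKM (limma adjusted p = 0.338). The uptake transporter gene Slc10a1 had 722 ± 110 and 682 ± 80.6 FPKM, with a 95% interval of the log2 difference of -0.46 to 0.31.

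**Figure D4:**
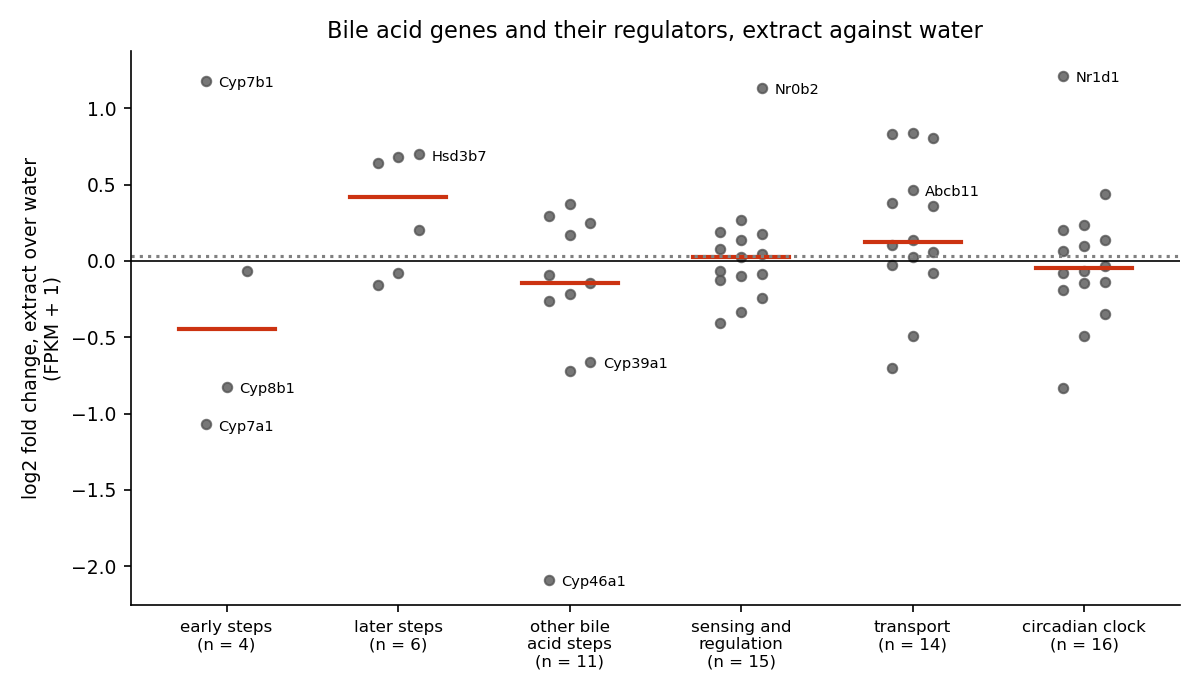
Log2 fold change, extract over water (vertical axis, FPKM + 1 scale), of each tested gene in 6 lists; points are genes, red lines the list medians, and the dotted line the median of all genes tested. The later steps have the highest median (0.42) and the early steps the lowest (-0.44), and Cyp46a1 has the lowest single value (-2.09).

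Cyp7a1 follows the time of day in mouse liver, and the labels give no sampling time, so clock genes were examined beside it. Of 19 listed genes 16 were tested, with a median log2 fold change of -0.05, and 2 higher and 2 lower genes had an unadjusted p below 0.05 (6.5% and 3.82% of all genes tested). Nr1d1, a clock repressor, had 21.1, 12.4 and 13.7 FPKM in water and 37.7, 30.8 and 42.7 in extract 1 to 3, with no overlap (log2 fold change 1.21, limma adjusted p = 0.117). Dbp, an output activator, had 71.5 ± 6.66 and 97.3 ± 10.8 FPKM (limma adjusted p = 0.311). Nfil3, a repressor of clock output, had 10.1 ± 0.97 and 5.55 ± 2.43 FPKM and was lower in all extract libraries (limma adjusted p = 0.364). The core genes Per1, Per2, Per3 and Clock had log2 fold changes of 0.21, -0.07, 0.24 and -0.08. Those of Cry1 and Cry2 were -0.35 and -0.03, and the groups overlapped for all of these. Arntl did not pass the filter on low values, with 0.42 to 0.65 FPKM in water and 0.30 to 0.35 in extract libraries. The part of sampling time in the Cyp7a1 and Cyp8b1 values was not tested.

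Markers of other liver cells were measured in the same libraries. All 12 Kupffer cell markers had positive fold changes, with a summed level of 187 to 219 FPKM in water and 270 to 399 in extract libraries and no marker at 0. All 10 sinusoidal endothelial markers had negative ones, with sums of 155 to 190 and 136 to 161 FPKM. Cholangiocyte markers summed to 12.8 to 20.8 FPKM in water and 19.3 to 33.7 in extract libraries, mostly Spp1, with Krt7 and Epcam below 1 FPKM throughout. Stellate markers summed to 175 to 183 and 176 to 231 FPKM, and a list of blood cell genes to 795 to 2776 and 533 to 813. The blood sums were mostly the haemoglobin gene Hba-a1. Of the 7 blood genes tested 5 had negative fold changes and 2 positive ones (Alas2 and Ptprc). The 11 hepatocyte markers with values had a median log2 fold change of 0.05, with sums of 88768 to 93820 and 74581 to 85567 FPKM that were mostly albumin. The part of cell composition in the enzyme values was not tested.

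For the early enzymes the tested genes with the nearest profile over the 6 libraries were found by the root mean square difference of log2(FPKM + 1), each gene centred on its own mean. With 10282 genes and 6 libraries close matches arise readily, so these are descriptions. Nearest to Cyp7a1 were Mndal (0.236) and Nipal1 (0.25), which were also highest in water 3. Nearest to Cyp8b1 were Trim24 (0.177) and Map2k6 (0.212), both low in extract 1 and extract 2 and at or above water levels in extract 3. Nearest to Cyp7b1 were Xaf1 (0.181) and Apol9a (0.216), and nearest to Cyp27a1 were Smim13 (0.0318) and Pex6 (0.0518).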

How the data were processed

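Mouse liver mRNA, selected with oligo(dT) beads, was read in 6 libraries, 3 per group. Per the submitters' processing notes the build was GRCm38 and the tools were RSEM 1.2.12, HISAT2 2.0.4, DESeq2 1.4.5 and Bowtie2 2.2.5, with no roles stated. The deposited values, made by the authors, were read as FPKM: their sums differ between libraries, unlike TPM, while values times the longest GENCODE transcript came to 118.1% to 120.8% of a library's fragments in each. FPKM removes depth, lets a few abundant transcripts shift the rest, and divides reads among similar genes by estimation.

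The table had 22899 rows, 5161 of them blank and 592 at 0 in all libraries. 11 symbols turned into dates were restored by gene ID. The authors' group means were not used. Of the rest, 10282 genes reached 1 FPKM in 3 or more libraries. On their log2(FPKM + 1) values limma 3.58.1 (R 4.3.3) was fitted with a trended prior and no block or batch term. The method was tested on simulated data.

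Members, gene lists and motifs were chosen with earlier results of these data known. Besides the 10 enzymes, up to 4 genes with the smallest p per list of related steps, regulators, transporters and clock genes, 11 genes whatever their result, and the nearest profiles were named; other genes were chosen after their values were seen. One gene that this rule names is not reported here. Alternatives covered scaling, filters, pseudocount, prior, weights, a replicate block and left-out libraries. Coordinates and promoters are RefSeq's on GRCm38.p6.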

Additional observations from a re-analysis of the deposited data

How the results depend on the processing

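The count of enzymes past limma's adjusted threshold was 0 as reported (5 at unadjusted p below 0.05), 3 with library weights, 2 without water 1 and extract 3 together (Cyp8b1 and Cyp7b1), and 0 to 1 when one library was left out. It stayed 0 under the other 12 alternatives, among them a replicate block, other scalings, filters, pseudocounts and priors. The early enzymes minus the later ones differed between extract and water by -0.52 on the log2 scale, and by -0.66 to -0.40 when one library was left out, with no change of sign in 20 alternatives. Genes called over all tested numbered 5 as reported, 0 after median centring, median-of-ratios scaling, no filter or the replicate block, 2 after quantile normalization or with a smaller pseudocount, 133 with library weights, 68 without water 1 and extract 3, and 0 to 48 with one library left out. No scaling moved the median gene by more than 0.05. With the replicate block the smallest limma adjusted p of an enzyme was 0.136, for Cyp7a1. Its unadjusted limma p was 0.000352 with the block and 0.0552 without it, and 6 enzymes were below 0.05 with the block. Same-numbered libraries deviated from their group means with correlations of -0.0171, -0.177 and 0.117, so the numbers were not taken as pairs. Among the named genes the sign changed as follows. Cyp27a1 was 0.023 with library weights and -0.23 to 0.032 with one library left out, where Slc27a5 was -0.19 to 0.019, Nr1h4 -0.25 to 0.12, Slc10a1 -0.21 to 0.0087, Hnf4a -0.032 to 0.10, Smim13 -0.26 to 0.016 and Pex6 -0.14 to 0.11. Smim13 was 0.0017 with library weights. Pex6 was -0.017 after median centring, -0.0020 after quantile normalization, -0.0094 after median-of-ratios scaling and -0.0070 with a common sum. Without water 1 and extract 3, Klb was -0.082 and Hnf4a -0.057. The cause of these shifts was not tested. With 3 libraries a group and unknown depth, small differences cannot be resolved.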

Other observations

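Genes of the pericentral zone, the part of the liver lobule where Cyp7a1 is known to be highest, were looked at beside the enzymes. Of 12 listed genes 11 were tested, with a median log2 fold change of -0.02, and 3 lower genes and no higher one had an unadjusted p below 0.05, against 3.82% and 6.5% of all genes tested. These were Tbx3, a transcription factor (5.82 ± 1.15 FPKM in water and 2.87 ± 0.38 in extract livers), Oat, the ornithine aminotransferase (199 ± 48.8 and 97.3 ± 15.1), and the glutamate transporter gene Slc1a2 (27.0 ± 9.74 and 17.6 ± 0.73), and the groups did not overlap for any of them, as for 5.88% of all genes tested in that direction. None passed limma's adjusted threshold (smallest adjusted p 0.145). Glul, the glutamine synthetase of the innermost hepatocytes, had 301 ± 59.1 and 305 ± 14.3 FPKM, and Cyp2e1 had a log2 fold change of 0.18.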
